A study of Mus musculus with 2 samples.

Results

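The genes described here are 10 that are often read as signs of a suppressive myeloid state: *Cd274*, *Arg1*, *Arg2*, *Nos2*, *Ptgs2*, *Il10*, *Cd84*, *Clec4d*, *Clec4e* and *Acod1*. They were chosen by symbol, and all 10 were found among the 32286 features of the count matrices. The question put to them was whether neutrophils of lungs exposed to tumor conditioned media carried a suppressor-like profile. RNA of single cells was measured in 2 libraries of dissociated whole lung from female BALB/c mice aged 9 to 10 weeks. One library came from mice that received control media (CM) by vein for 3 weeks and the other from mice that received tumor conditioned media (TCM) over the same time. TCM was DMEM in which pieces of orthotopic 4T1 mammary tumors had been kept, and CM was the same medium kept without tumor, so the recipients carried no tumor of their own and the model is limited to what the tumor pieces released. The number of mice behind each library is not given in the sources used here, and each group was 1 library. No test between groups was therefore possible, and every interval below is a 95% interval for counting error only.

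Suppressor neutrophils and monocytes, often called myeloid-derived suppressor cells, restrain T cells by several routes. Arginase and inducible nitric oxide synthase use up arginine, cyclooxygenase makes prostaglandin E from arachidonic acid, IL-10 and PD-L1 act on T cells and antigen-presenting cells through their receptors, and *Acod1* encodes the mitochondrial enzyme that makes itaconate. *Cd84*, *Clec4d* and *Clec4e* encode surface receptors that have been used to mark such cells, and mature neutrophils also carry the last pair of them in health.

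Droplets with at least 500 unique molecular identifiers (UMIs), at least 200 genes and at most 10% mitochondrial UMIs were kept, which gave 7988 CM cells and 7707 TCM cells with median depths of 2085 and 2346 UMIs. Of these, 93 barcodes occurred in both libraries, which is 1.16% of the kept CM cells and 1.21% of the kept TCM cells. A cell was placed in a class when at least 3 different markers of that class were detected and these led the next class by at least 2. No member gene was a marker. Neutrophil-like cells numbered 250 in CM (3.13%, interval 2.76 to 3.54%) and 1478 in TCM (19.2%, interval 18.3 to 20.1%), with median depths of 1230.5 and 1561 UMIs, and all 11 neutrophil markers were detected in both. They held 1.41% of the UMIs of all kept CM cells and 9.73% of those of the TCM cells, a 6.90-fold difference. Levels are given as CP100k, the UMIs of a gene per 100000 UMIs of the class. The kit tags 1 end of each RNA molecule, so these counts were not divided by gene length. Ratios are log2 ratios of TCM over CM.

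All coordinates are of build GRCm38. *Clec4d* (ENSMUSG00000030144, chr6:123262111-123275265, plus strand) and *Clec4e* (ENSMUSG00000030142, chr6:123281789-123289870, minus strand) are neighbours whose annotated starts lie 27.8 kb apart and point towards each other. Each was the gene most like the other in level, with a Pearson r of 0.98 across 24 class-by-library sums of 13 classes. *Acod1* (ENSMUSG00000022126, chr14:103046977-103056573, plus strand) and *Ptgs2* (ENSMUSG00000032487, chr1:150100031-150108227, plus strand) encode enzymes whose neutrophil levels lay in opposite directions between the libraries. The stretches upstream of these 4 genes, from the RefSeq promoter table (GRCm38.p6), are printed for that reason. They are chr6:123261857-123262106 and, on the minus strand, chr6:123289872-123290121, chr14:103046762-103046976 and chr1:150099781-150100030, each read 5′ to 3′ towards the gene. Capitals mark matches to the letters TTGCNNAA (C/EBP type) and GGGNNNNNCC (NF-kB type).
Clec4d: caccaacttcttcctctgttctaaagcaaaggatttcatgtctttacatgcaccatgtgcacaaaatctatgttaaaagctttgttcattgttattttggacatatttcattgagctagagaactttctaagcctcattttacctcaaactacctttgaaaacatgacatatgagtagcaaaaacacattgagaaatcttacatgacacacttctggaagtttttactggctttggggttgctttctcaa
Clec4e: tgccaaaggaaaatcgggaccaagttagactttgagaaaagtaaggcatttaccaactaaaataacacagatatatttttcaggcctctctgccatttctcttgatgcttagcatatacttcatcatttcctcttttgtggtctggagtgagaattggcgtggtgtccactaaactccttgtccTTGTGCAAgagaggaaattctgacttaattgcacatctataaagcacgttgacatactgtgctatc
Acod1: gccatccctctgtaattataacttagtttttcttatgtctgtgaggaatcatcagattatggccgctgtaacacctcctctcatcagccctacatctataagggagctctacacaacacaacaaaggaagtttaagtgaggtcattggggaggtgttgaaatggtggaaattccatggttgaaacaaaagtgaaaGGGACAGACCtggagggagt
Ptgs2: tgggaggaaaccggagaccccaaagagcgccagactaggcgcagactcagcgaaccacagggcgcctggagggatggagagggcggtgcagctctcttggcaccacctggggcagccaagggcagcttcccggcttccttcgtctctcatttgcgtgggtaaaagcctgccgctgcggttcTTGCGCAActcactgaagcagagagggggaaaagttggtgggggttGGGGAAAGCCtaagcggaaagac

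The table held 6 of the 10 members, and 5 motifs were searched on both strands of the 250 bases before each RefSeq start. For *Acod1* the first 215 of these are printed, because the rest lie inside the GENCODE gene model. TTGCNNAA was found upstream of *Clec4e* and of *Ptgs2*, and 9.56% of all 32851 promoters of this length held it. GGGNNNNNCC was found upstream of *Acod1*, *Ptgs2* and *Cd84*, and 45.8% of all promoters held it. The AP-1 letters TGANTCA, held by 6.75% of promoters, were found only upstream of *Cd84* among the 6. ACGTCA (CRE type, 6.47% of promoters) and CACGTG (E-box, 6.02%) were found in none of these windows, and no motif of the 5 was found upstream of *Clec4d* or *Cd274*. These are matches of letters and say nothing of binding.

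Summed over all kept cells, most members were more abundant in the TCM lung. *Acod1* was at 2.68 CP100k in CM and 22.5 in TCM, an 8.38-fold difference (log2 ratio 3.07, interval 2.95 to 3.18). *Clec4d* differed 5.09-fold, from 2.42 to 12.3 CP100k, and *Clec4e* 4.64-fold, from 2.87 to 13.3. *Arg2*, the mitochondrial arginase, differed 4.46-fold, from 2.49 to 11.1 CP100k. *Ptgs2*, the inducible cyclooxygenase, differed 2.26-fold and *Nos2* 2.08-fold. In these lung-wide sums 6 of the 10 members were at least 2-fold higher in TCM and 0 at least 2-fold lower, where 3.70% and 3.24% of all 17241 genes with at least 10 UMIs were. The other 4 lay closer to 1. *Cd84* differed 1.55-fold, *Arg1* 1.34-fold (interval of the log2 ratio -0.40 to 1.26) and *Cd274*, which encodes PD-L1, 1.06-fold (interval -0.11 to 0.27). *Il10* was at 7 UMIs in CM and 4 in TCM. In a sum over the lung, more cells of a type and more RNA per cell cannot be told apart, and the classes below separate the first of these.

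**Figure D1:**
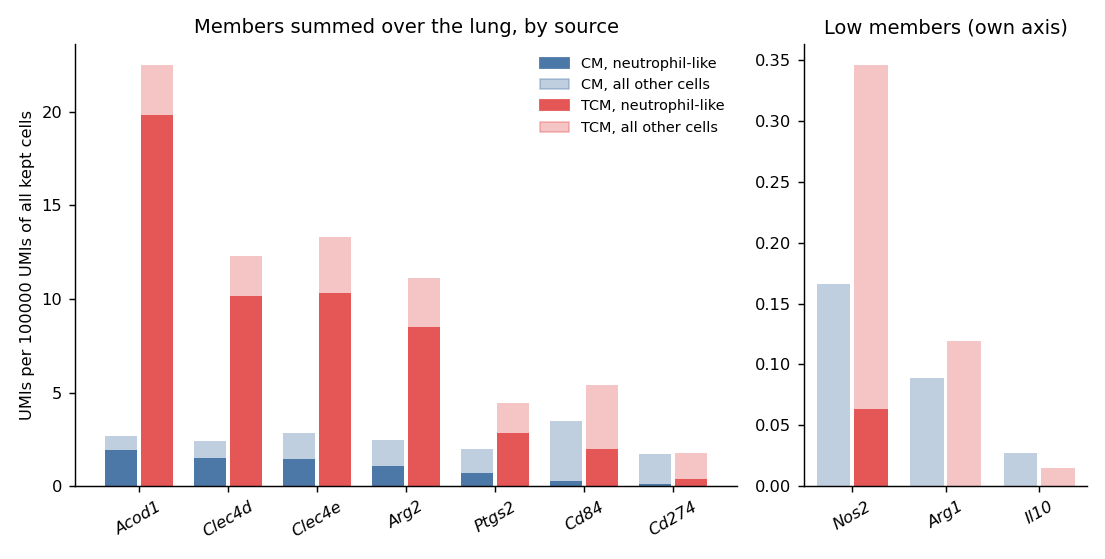
Level of each member summed over all kept cells, in UMIs per 100000 UMIs on linear axes that start at 0, in the CM (blue) and TCM (red) libraries; dark parts are neutrophil-like cells and pale parts all other cells. In TCM the neutrophil-like part of *Acod1* makes up 88.2% of its bar, and *Nos2*, *Arg1* and *Il10* are drawn on their own axis because none exceeds 0.35.

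The neutrophil-like cells supplied the larger part of 5 members in TCM. Their share of all *Acod1* UMIs was 72.7% in CM (interval 69.2 to 75.9%) and 88.2% in TCM (87.4 to 89.0%). For *Clec4d* the shares were 62.1% and 82.7%, for *Clec4e* 50.7% and 77.8%, for *Arg2* 44.0% and 76.5% and for *Ptgs2* 36.1% and 63.6%. *Cd84* and *Cd274* had most of their UMIs elsewhere, with neutrophil-like shares of 8.40% and 36.3% for *Cd84* and of 7.01% and 22.8% for *Cd274*. No UMI of *Arg1* or *Il10* came from a neutrophil-like cell in either library.

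Per unit of neutrophil RNA the picture was different. Of the 10 members, 8 had at least 10 UMIs in neutrophil-like cells of both libraries together. None of the 8 was called at least 2-fold higher in TCM, where 10.1% of all 8877 genes compared in this class were, and 1 was at least 2-fold lower, where 12.1% of all genes were. For *Nos2*, with 0 UMIs in CM, the ratio was only a bound, so a 2-fold rise could not be judged. The median log2 ratio of the 7 members with UMIs in both libraries was -0.03, beside -0.14 for the 8335 genes with UMIs in both. The interval lay above 0 for *Acod1*, below 0 for *Ptgs2* and *Cd274*, and included 0 for *Arg2*, *Cd84*, *Clec4d* and *Clec4e*.

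**Figure D2:**
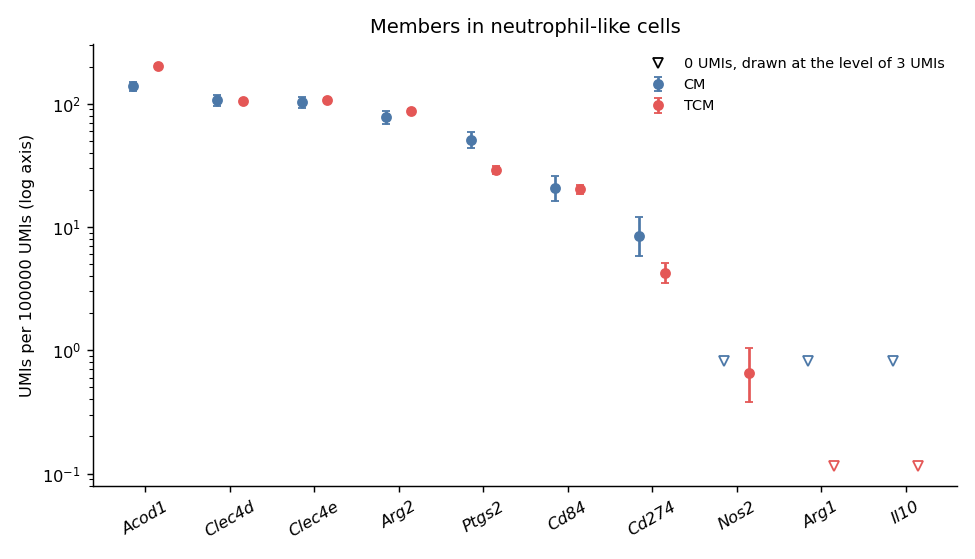
Level of each member in neutrophil-like cells, in UMIs per 100000 UMIs on a log axis, in CM (blue, 250 cells) and TCM (red, 1478 cells); bars are exact Poisson 95% intervals and open triangles stand at the level of 3 UMIs where a sum was 0. The points of *Clec4d*, *Clec4e*, *Arg2* and *Cd84* overlap between libraries, *Acod1* lies higher and *Ptgs2* and *Cd274* lower in TCM.

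Among the enzymes, *Acod1* stood at 138 CP100k in CM (505 UMIs, interval 126 to 151) and 204 in TCM (5339 UMIs, interval 198 to 209). This was a 1.48-fold difference with a log2 ratio of 0.56 (interval 0.43 to 0.70), the largest upward one among the members in these cells. After each cell was thinned to 1000 UMIs, which left 168 CM and 1151 TCM cells and left out 82 and 327, *Acod1* was detected in 58.3% of CM (interval 50.5 to 65.9%) and 67.9% of TCM cells (65.1 to 70.5%). Without thinning the shares were 55.6% and 75.8%. T-like cells, which should lack the gene, had it in 0.36% and 1.70% of thinned cells, at unthinned median depths of 2501.5 and 2431.5 UMIs. *Arg2* (ENSMUSG00000021125, chr12:79130777-79156301) was at 77.7 CP100k in CM and 87.5 in TCM (log2 ratio 0.17, interval -0.01 to 0.35), in 54.2% and 57.2% of thinned cells. Its gene body overlaps *Vti1b* and an antisense gene on the other strand, so part of its count is uncertain where strand was not used.

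*Ptgs2* went the other way. It was at 50.6 CP100k in CM (185 UMIs, interval 43.6 to 58.5) and 29.2 in TCM (764 UMIs, interval 27.2 to 31.3), a log2 ratio of -0.80 (interval -1.03 to -0.56). The share of thinned cells with it was 33.3% in CM (26.3 to 41.0%) and 21.7% in TCM (19.4 to 24.2%). Immediate early genes, which change within minutes of handling or activation, were also lower in the TCM neutrophil-like cells for 3 of 4 examined over the whole class, with log2 ratios of -0.84 for *Fos*, -0.68 for *Egr1* and -1.29 for *Atf3*, while *Jun* was at 0.07 (interval -0.25 to 0.41). Another such gene, *Nr4a1*, was examined only by cluster. In the main group of neutrophil-like cells described below it was at 147 CP100k in CM and 35.9 in TCM. Their part in the *Ptgs2* difference was not tested. *Nos2* (chr11:78920787-78960254), the inducible nitric oxide synthase, had 0 UMIs in the CM cells and 17 UMIs in 14 of the TCM cells, 0.65 CP100k. In the CM sum of 365369 UMIs, 3 UMIs would be 0.82 CP100k, above the TCM level, so at this depth a difference could not be detected. *Arg1* (chr10:24915221-24927484), the cytosolic arginase of liver and of alternatively activated macrophages, had 0 UMIs in 250 CM and 1478 TCM cells. The upper limits of the intervals for the share of cells with a UMI were 1.46% and 0.249%.

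Of the ligands, *Cd274* (chr19:29367455-29388095, overlapped by an antisense gene) was low. It was at 8.48 CP100k in CM (31 UMIs in 19 cells, interval 5.76 to 12.0) and 4.24 in TCM (111 UMIs in 90 cells, interval 3.49 to 5.11). The log2 ratio of -1.001 (interval -1.59 to -0.38) sat on the 2-fold threshold, and *Cd274* was the 1 member called lower. In CM, 10 cells held 71.0% of its UMIs, and without the cell holding most of them in each library the ratio was -0.82, short of 2-fold. In thinned cells it was detected in 4.17% of CM (1.69 to 8.40%) and 3.04% of TCM cells (2.13 to 4.20%), against 0.91% and 1.95% of T-like cells. Alveolar macrophage markers, whose class carried the most *Cd274* of the lung, were summed at 24.9 CP100k over 8 of 12 detected markers in the CM and 7.91 over 12 of 12 in the TCM neutrophil-like cells, with *Ear1*, *Krt79*, *Plet1* and *Kcnn3* at 0 in CM. Most of the CM sum was *Chil3*, which is also among the granule genes of immature neutrophils counted below. It was alone at 15.9 CP100k in CM, with 96.6% of its UMIs in 10 cells, and at 1.41 in TCM. The part of macrophage RNA in the *Cd274* difference was not tested. *Il10* (chr1:131019845-131024974) had no UMI in either set of neutrophil-like cells.

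The 3 surface receptors were nearly level. *Clec4d*, which encodes MCL, was at 106 CP100k in CM (389 UMIs, interval 96.1 to 118) and 104 in TCM (2735 UMIs, interval 101 to 108). *Clec4e*, which encodes Mincle, a receptor for mycobacterial and damage-associated glycolipids, was at 103 (377 UMIs) and 106 (2784 UMIs). Their log2 ratios of -0.03 (interval -0.18 to 0.13) and 0.04 (interval -0.11 to 0.20) had counting intervals that included 0, and the spread between mice was not measured. *Cd84* (chr1:171839697-171890718), a receptor of the SLAM family that binds itself on other cells, was at 20.8 and 20.3 CP100k (log2 ratio -0.04, interval -0.39 to 0.33). Thinned T-like cells had *Cd84* in 7.97% and 9.00% of cells and neutrophil-like cells in 18.5% and 16.6%.

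Among neutrophil-like cells deep enough to be thinned, single cells carried several members at once to a like degree. With thinned cells, a median of 3 members was detected in both libraries, and 3 or more were detected in 61.3% of CM (interval 53.5 to 68.7%) and 62.4% of TCM cells (59.5 to 65.2%). No member was detected in 5.95% (2.89 to 10.7%) and 3.04% (2.13 to 4.20%). Thinning left out cells below its depth. The third group described below, 3.20% of the class in CM and 12.4% in TCM, had median depths of 652 and 929.5 UMIs. Both lie under that depth. These and the other thinned shares of neutrophil-like cells therefore leave out much of that group, and its part in them was not tested. Cells with at least 2 UMIs of the granule genes *Camp*, *Ltf*, *Ngp* and *Chil3*, which immature neutrophils make, were 6.80% of the neutrophil-like cells in CM and 2.23% in TCM. Without them the log2 ratios stayed inside the intervals above.

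Clusters of all cells, made with the members and the pathway genes left out, placed most neutrophil-like cells in 3 groups. The main group held 211 CM and 1190 TCM cells. Against all other cells of the lung, a second group was led by *Itga6*, *Slc2a3* and *Cxcl3* and held 21 and 57 of the neutrophil-like cells. Its whole cluster had 51 CM and 143 TCM cells, most of them not neutrophil-like by the gate. The leading genes are those of the whole cluster, whereas the levels below are of its neutrophil-like cells only. The third group, with *Dhrs9*, *Slc7a11* and *Il1rap* among its leading genes, held 8 CM cells (3.20% of the class) and 184 TCM cells (12.4%). Between these groups *Slc2a3* was higher in the third, at 80.6 CP100k in TCM against 30.5 in the second. Cells of the third group were shallow, with median depths of 652 and 929.5 UMIs. In TCM the third group had the higher levels of *Clec4e* (198 CP100k against 108 in the main and 37.7 in the second group), of *Ptgs2* (74.3 against 27.3 and 8.81) and of *Cd84* (53.9 against 17.6 and 26.4). *Acod1* was at 237 CP100k there, 221 in the main group and 74.5 in the second. Within the main group alone the log2 ratios of TCM over CM were 0.49 for *Acod1* (interval 0.35 to 0.63), 0.04 for *Arg2*, -0.06 for *Clec4e*, -0.16 for *Clec4d*, -0.31 for *Cd84*, -1.06 for *Ptgs2* (interval -1.31 to -0.81) and -1.14 for *Cd274* (interval -1.78 to -0.46).

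The other myeloid classes carried parts of the set, with *Clec4d*, *Clec4e* and *Arg2* at lower levels than in neutrophil-like cells. *Cd274* and, in TCM, *Cd84* were higher in alveolar macrophage-like cells. In TCM, *Acod1* and *Ptgs2* were higher in the few mast or basophil-like cells. Classical monocyte-like cells numbered 36 in CM and 129 in TCM, of which 38.9% and 48.8% lay at the edge of the gate. *Clec4e* was at 16.9 CP100k in the CM cells (31 UMIs, interval 11.5 to 24.1) and 36.2 in the TCM cells (258 UMIs, interval 31.9 to 40.8), a log2 ratio of 1.09 (interval 0.55 to 1.68). Over classical and non-classical cells together it was 1.40, and 0.92 as a mean over cells. Only 11 of the classical cells in CM held *Clec4e* UMIs, and 10 of these held 96.8% of them. *Clec4d* was at 13.7 and 12.6 CP100k in the classical cells of CM and TCM (log2 ratio -0.12, interval -0.77 to 0.59) and *Arg2* at 15.3 and 16.0. *Ptgs2* had 1 and 12 UMIs there, and *Acod1* 0 and 2. Of the 5 members compared, 2 were at least 2-fold higher, *Clec4e* and *Ptgs2*, where 11.2% of 6661 genes were, and 0 were lower, where 7.09% of genes were. The median log2 ratio was 0.06 beside 0.04 for all genes. Taking classical and non-classical monocyte-like cells together gave 82 CM and 149 TCM cells and a median of 0.51 over 6 members, beside -0.00 for all genes, with 2 members higher (all genes 8.89%) and 1, *Cd274*, lower (all genes 8.26%). The 46 CM and 20 TCM non-classical cells alone gave a median of 0.57 over 3 members, each with an interval that included 0. In the pooled monocyte-like class *Cd274* was at 3.49 and 0.65 CP100k, and 9 of its 11 CM UMIs came from the non-classical cells, which made up more of the CM class.

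**Figure D3:**
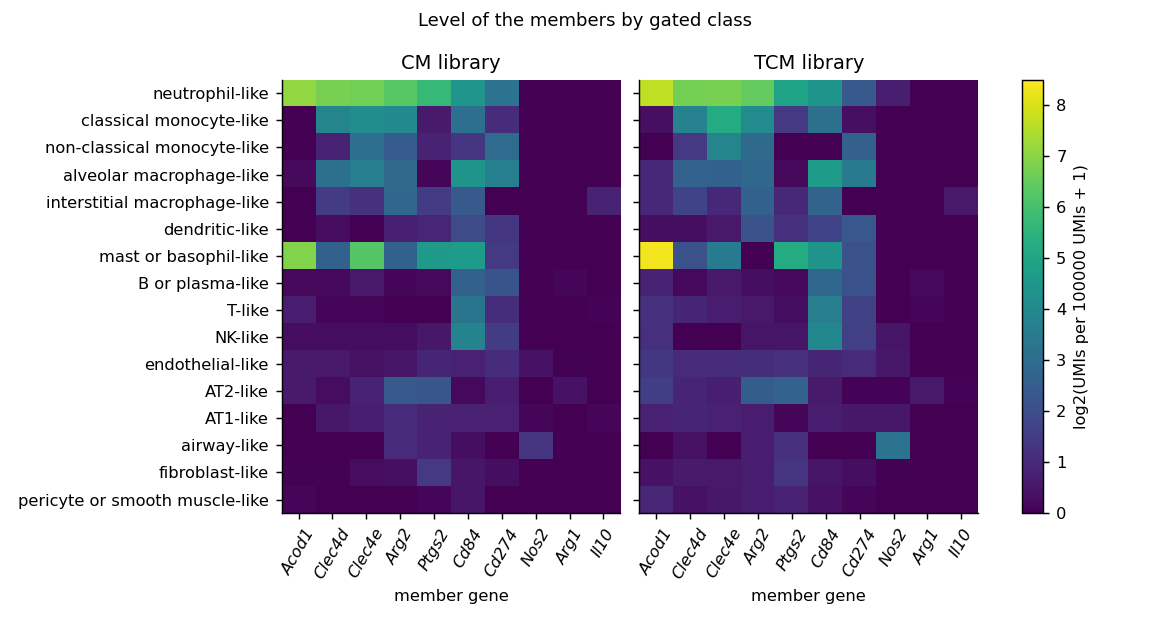
Level of each member in 16 gated classes of the CM (left) and TCM (right) libraries, as log2(UMIs per 100000 UMIs + 1) on a colour scale from 0 to 8.5. The neutrophil-like row is bright for the first 5 members in both, *Cd84* spreads over macrophage and lymphocyte rows, and *Arg1* and *Il10* stay near 0 in every row.

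Alveolar macrophage-like cells (260 CM, 316 TCM) had the highest *Cd274* level of the myeloid classes in both libraries and a *Cd84* level near that of the neutrophil-like cells. *Cd274* was at 11.6 CP100k in CM (151 UMIs, interval 9.86 to 13.7) and 10.7 in TCM (161 UMIs, interval 9.07 to 12.4), above the 4.24 of the TCM neutrophil-like cells. *Cd84* was at 20.2 and 24.3 (log2 ratio 0.27, interval 0.04 to 0.50). *Clec4e* was lower in TCM, at 11.6 (150 UMIs) and 5.23 CP100k (79 UMIs), a log2 ratio of -1.15 (interval -1.56 to -0.74), and *Clec4d* was at 7.71 and 5.36 (log2 ratio -0.53, interval -0.97 to -0.09). In CM, 10 cells held 55.3% of the *Clec4e* UMIs. Over both macrophage classes together the log2 ratio of *Clec4e* was -1.09, and it fell short of 2-fold as a mean over cells (-0.64), after thinning (-0.48) and in Leiden clusters (-0.88). *Arg2* was at 6.63 and 6.09. *Acod1*, which macrophages make under inflammatory stimuli, had 2 UMIs in CM and 15 in TCM, 7 of these in a single cell (log2 ratio 2.69, interval 0.58 to 5.86). In free RNA, taken from droplets of at most 50 UMIs, *Acod1* was at 2.73 CP100k in CM and 13.9 in TCM, and its part in these 15 UMIs was not tested. Of the 6 members compared, 1 was at least 2-fold higher (all 9736 genes 5.05%) and 1 lower (all genes 2.65%), with a median of -0.13 beside 0.11 for all genes. Interstitial macrophage-like cells (81 CM, 84 TCM) had *Arg2* at 6.04 and 5.22 CP100k and *Cd84* at 4.21 and 5.47. All 4 members compared there had intervals that included 0, with a median of 0.03. They were the main place of *Il10* in both libraries, with 3 UMIs in 2 CM cells and 2 UMIs in 1 TCM cell. For both macrophage classes together the median was -0.14 over 7 members, beside 0.09 for all genes.

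**Figure D4:**
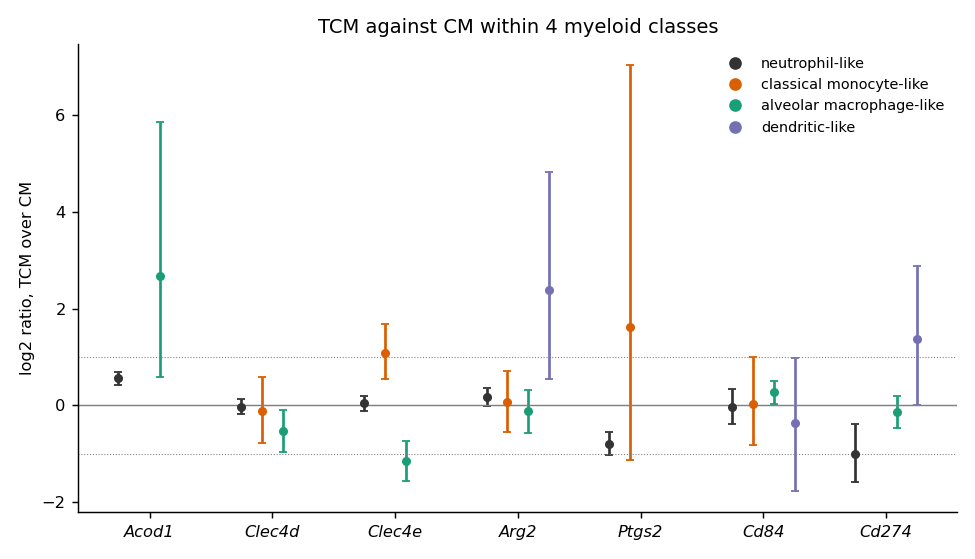
Log2 ratio of TCM over CM for 7 members in neutrophil-like (black), classical monocyte-like (orange), alveolar macrophage-like (green) and dendritic-like (purple) cells with at least 10 UMIs in both libraries together; bars are 95% intervals for counting error and dotted lines mark 2-fold. *Clec4e* lies at 1.09 in classical monocyte-like and at -1.15 in alveolar macrophage-like cells, with the neutrophil-like cells at 0.04 between them.

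Dendritic-like cells (61 CM, 48 TCM) had *Cd274* at 1.55 CP100k (7 UMIs) and 3.98 (16 UMIs), a log2 ratio of 1.37 (interval 0.00 to 2.89), and *Arg2* at 0.66 (3 UMIs) and 3.49 (14 UMIs), with 6 of the 14 UMIs in 1 cell. Mast or basophil-like cells were only 13 and 11. They nonetheless had *Acod1* at 117 CP100k in CM (67 UMIs) and 326 in TCM (97 UMIs), with a log2 ratio of 1.47 (interval 1.01 to 1.94), and *Ptgs2* at 22.8 and 36.9. *Clec4e* was at 73.6 CP100k there in CM, from 4 cells, and at 10.1 in TCM, from 1 cell.

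Endothelial-like cells had most members at levels below those of free RNA, among them *Cd84*, *Ptgs2* and *Cd274*, and 4 others are given here. *Acod1* was at 0.53 and 1.62 CP100k in these cells, *Clec4e* at 0.31 and 1.10, *Clec4d* at 0.50 and 1.06 and *Arg2* at 0.43 and 1.17, log2 ratios of 1.62, 1.85, 1.09 and 1.45. In the same libraries free RNA held *Acod1* at the levels given above, *Clec4e* at 3.59 and 15.3 CP100k, *Clec4d* at 1.87 and 10.2 and *Arg2* at 2.30 and 8.82, each higher in TCM. Its part in the endothelial values was not tested. *Ptgs2* and *Arg2* were also found in AT2-like cells, at 3.81 and 5.37 and at 4.22 and 4.71 CP100k. *Nos2* was found in airway-like cells at 1.49 CP100k in CM (6 UMIs) and 8.42 in TCM (28 UMIs in 12 of 38 cells), a log2 ratio of 2.49 (interval 1.20 to 4.06). It had 24 and 38 UMIs in endothelial-like cells. *Cd84* was at 8.93 and 11.5 CP100k in T-like and 12.8 and 14.7 in NK-like cells. *Arg1* had 23 UMIs in CM and 32 in TCM over the whole lung. Of these 11 and 19 came from 6 and 8 cells of no class, and 5 and 9 from AT2-like cells.

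The genes whose levels were most like each member across the 24 class-by-library sums, which share libraries and depth, are given as a description. Of these genes *Cxcr2*, *Trem1* and *Hdc* were on the neutrophil marker list. *Acod1* was most like *Cstdc4*, *Stfa2l1* and *Cxcr2* (r = 0.98 for each). *Arg2* was most like *Hk3* (r = 0.97), *Rnf149* (0.96) and *Clec4d* (0.94). *Clec4d* was most like *Clec4e* (0.98), *Slc16a3* and *Trem1* (both 0.97), and *Clec4e* most like *Clec4d*, *Gm50022* and *Klra2*. *Ptgs2* was most like *Osgin1* (0.94), *Ptgs2os2* (0.93) and *Hdc* (0.92). *Cd84* followed *Apbb1ip* (0.96), *Pik3r5* and *Fmnl1* (both 0.93), which are expressed in leukocytes generally, and *Cd274* followed *Wfdc21* (0.85), *Tmem154* and *Gpcpd1* (both 0.83). The likeness was weakest for *Nos2*, whose nearest genes were *Upp1* (0.81), *Kcnj14* (0.75) and *Bsdc1* (0.74).

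The pathways around the members were followed in neutrophil-like cells with 98 genes in 10 lists, of which 97 were in the files and 85 had at least 10 UMIs. At least 2-fold higher in TCM were 8 of the 85, and at least 2-fold lower were 10, against the 10.1% and 12.1% of all genes given above. For arginine transport and use, 0 of 6 genes were higher and 2 lower, from *Ass1*, which rebuilds arginine from citrulline, at 0.97 to the transporter *Slc7a2* at -2.36, the latter with 5 and 7 UMIs. For prostaglandin and leukotriene synthesis, none of 9 genes passed 2-fold in either direction. These ran from the phospholipase *Pla2g4a* at 0.86 to the prostaglandin receptor *Ptger4* at -0.84, both with intervals that included 0. The 10 genes of other checkpoint ligands and receptors had 2 higher and 2 lower, with *Lilrb4a*, an inhibitory receptor, at 64.3 and 136 CP100k (log2 ratio 1.08), *Cd86* at 1.22 and *Pdcd1lg2*, which encodes PD-L2, at -1.70. For IL-10 and TGF-beta signalling 0 of 8 were higher and 1, *Tgfb1*, was lower, at 18.6 and 8.71 CP100k (log2 ratio -1.10, interval -1.49 to -0.68), and the highest was *Smad3* at 0.74.

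**Figure D5:**
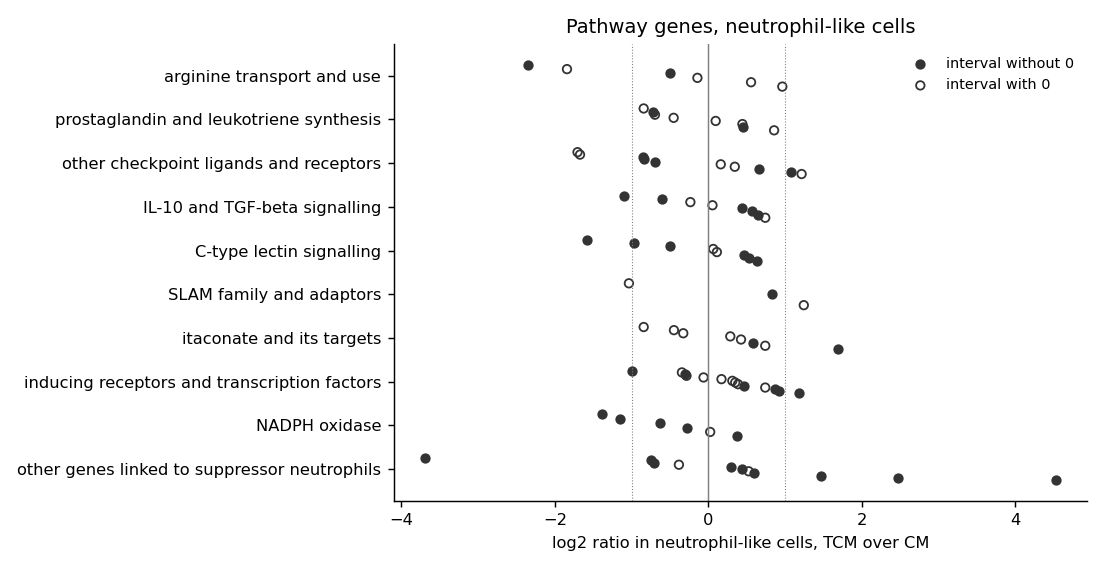
Log2 ratio of TCM over CM in neutrophil-like cells for 82 pathway genes with UMIs in both libraries, by list; filled points have a 95% counting interval without 0 (23 above and 20 below) and dotted lines mark 2-fold. Most points lie between the dotted lines, and *Wfdc17* at 4.53 and *Olr1* at -3.69 lie farthest out.

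C-type lectin signalling had 0 of 8 genes higher and 1 lower, the related receptor *Clec4a2* at -1.58 (interval -2.11 to -1.02), and its highest gene was *Syk*, the kinase below these receptors, at 0.63. The adaptor *Fcer1g*, with which Mincle pairs, was at 250 and 363 CP100k (log2 ratio 0.54). Among the SLAM family and its adaptors, 1 of 5 was higher, *Cd48* at 1.25, and 1 lower, *Slamf6* at -1.03, both on fewer than 40 UMIs and with intervals that included 0. Among the genes around itaconate, 1 of 8 was higher and 0 lower. It was *Gclm*, a glutathione synthesis gene under the factor NRF2 that itaconate is known to release, at 6.30 and 20.4 CP100k (log2 ratio 1.70, interval 1.10 to 2.37), and *Cs* was lowest at -0.84. *Nfe2l2*, which encodes NRF2, was at 0.58 (interval 0.31 to 0.86). Of 14 inducing receptors and transcription factors, *Hif1a* was higher, at 19.7 and 44.7 CP100k (log2 ratio 1.18, interval 0.84 to 1.55), and none was lower, with *Nfkb1* lowest at -0.99. The NADPH oxidase, which makes superoxide, had 0 of 6 genes higher and 2 lower. *Cybb*, its catalytic subunit, was at 20.3 and 7.79 CP100k (log2 ratio -1.38) and *Ncf1* at 41.9 and 18.9 (log2 ratio -1.15), while *Rac2* was highest at 0.37. Of 11 other genes linked to suppressor neutrophils, 3 were higher and 1 lower. *Wfdc17* was at 19.7 and 456 CP100k (log2 ratio 4.53, interval 4.20 to 4.89), *Ifitm1* at 50.1 and 279 (2.48) and *Xbp1* at 9.03 and 25.1 (1.48), whereas *Olr1*, which encodes the LOX-1 receptor used to sort such cells in people, was at 9 and 5 UMIs (-3.69, interval -5.61 to -1.96). *Olr1* was also among the leading genes of the alveolar macrophage cluster, and the part of macrophage RNA in its few UMIs was not tested. In monocyte-like cells 10 of 79 pathway genes were at least 2-fold higher (all genes 8.89%) and 6 lower (all genes 8.26%), and in macrophage-like cells 4 of 89 were higher (all genes 4.58%) and 0 lower (all genes 2.55%).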

How the data were processed

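Libraries of whole-lung cells (1 CM, 1 TCM) were prepared by the authors with a 5-prime droplet kit (10x Genomics), sequenced on a NovaSeq instrument and mapped with Cell Ranger (version 4 per the file headers) to mm10 (GRCm38.p6). The deposited values are raw UMI counts per gene and droplet, without normalization, for 737280 barcodes per library. The CM matrix summed to 31944151 UMIs and that of TCM to 36648719. The cell filters were those of the study. Whether counting used strand is not given in the sources used here.

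The members, marker lists and pathway lists were chosen with earlier results of these data known. The text names all 10 members, for each pathway list the genes with the highest and the lowest log2 ratio in neutrophil-like cells, and for members with at least 100 UMIs the 3 genes with the highest Pearson correlation of log2(CP100k + 1) over class-by-library sums of at least 50 cells. Other named genes were chosen after their values were seen.

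Cells were classed by the gate described above over 18 marker lists. Cells with too small a lead (1087 CM, 840 TCM) or too few markers (442 and 257) were left out of the classes, which was also how doublets were treated. Names carry "-like". A class near the cut holds cells that 1 marker fewer would have removed. UMIs were summed per class and library. Where 1 of both sums was 0, it was set to 3 UMIs and the ratio was read as a bound. Sums of 3 or fewer on both sides gave no ratio. A gene was compared with at least 10 UMIs in both libraries together and called at a 2-fold difference. Intervals are exact Poisson (sums), Clopper-Pearson (shares) and conditional binomial (ratios). UMI counts of 1 cell are not independent, so the intervals are lower limits of the error. The ratio step was tested on simulated independent Poisson sums. These hold no clustering of UMIs within cells, so the test does not bear on that part of the error. Python 3.11.15, numpy 2.4.6, scipy 1.17.1, pandas 2.3.3, scanpy 1.11.5 and leidenalg 0.10.2 were used. Coordinates are from GENCODE vM21. Alternatives were other classes (Leiden clusters, a stricter gate), cell filters, doublet removal, free RNA subtraction, other scalings and thinning.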

Additional observations from a re-analysis of the deposited data

Results flagged for a closer look

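Pairs of myeloid classes stood apart in the direction of a member. *Clec4e* had a log2 ratio of TCM over CM of 1.09 in classical monocyte-like and -1.15 in alveolar macrophage-like cells, and *Cd274* of 1.37 in dendritic-like and -1.001 in neutrophil-like cells. With 1 library per group these differences between classes were not tested, and the dendritic-like value rests on 7 and 16 UMIs. Over both macrophage classes together the *Clec4e* ratio was -1.09 and lay between -1.31 and -0.48 over the alternatives.

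*Arg1* was found mostly outside the myeloid classes compared. In cells of no class its log2 ratio was 1.46 (interval 0.31 to 2.68), from 11 UMIs in 6 CM cells and 19 UMIs in 8 TCM cells, while free RNA held 0 UMIs of it in both libraries. All cells of no class summed to 436842 UMIs in CM and 274346 in TCM, so part of this ratio comes from the smaller TCM sum. Over the whole lung the interval of the *Arg1* ratio included 0.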

How the results depend on the processing

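No paired analysis was possible because each group held 1 library, and for the same reason no replicate could be left out. Of the 7 members with UMIs in both libraries, 0 were at least 2-fold higher in TCM neutrophil-like cells under each of the 12 alternatives. The median log2 ratio there, -0.03, ran from -0.15 to 0.11 over them. *Acod1* lay between 0.45 and 0.70, and centring on the median of all genes put it at 0.70, just past its main interval. *Ptgs2* ran from -0.99 to -0.66, *Cd274* from -1.51 to -0.82, *Arg2* from 0.07 to 0.31, *Cd84* from -0.23 to 0.10, *Clec4d* from -0.15 to 0.11 and *Clec4e* from -0.06 to 0.18, all inside the main intervals, so that *Cd274* fell to either side of 2-fold. The medians in monocyte-like and macrophage-like cells ran from 0.49 to 0.96 and from -0.40 to 0.02 over 11 alternatives. Single members there moved more. In macrophage-like cells *Clec4e*, -1.09, was -0.64 as a mean over cells, -0.48 after thinning and -0.88 in Leiden clusters, each short of 2-fold. *Clec4d*, -0.44, was 0.02 after thinning, and *Ptgs2*, -0.61 from 8 and 6 UMIs, ran from -1.92 as a mean over cells to 1.55 in Leiden clusters, which held 8 and 26 UMIs. In monocyte-like cells *Cd84*, 0.51, was 1.65 after thinning, from 2 and 12 UMIs, and *Clec4e*, 1.40, was 0.92 as a mean over cells. Estimated free RNA was 8.19% of neutrophil-like UMIs in CM and 14.1% in TCM. Leiden clusters held 96.0% of the gated CM and 97.2% of the gated TCM neutrophil-like cells. *Nos2*, *Arg1* and *Il10* had no UMI in the CM neutrophil-like cells and were not followed over these alternatives. *Arg1* and *Il10* had none in the TCM neutrophil-like cells either. The intervals cover counting error and say nothing of the spread between mice.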

Other observations

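The few cells of no class with *Arg1* shared transcripts that the other cells of no class mostly lacked. The genes were chosen after their values were seen. *Gata3* was detected in 4 of 6 such cells in CM and 6 of 8 in TCM, against 3.90% and 4.02% of the other cells of no class. *Il1rl1*, the IL-33 receptor, was detected in 4 and 4, against 2.75% and 2.01%, and *Calca* in 2 and 6, against 2.06% and 2.81%. *Cd3e* was detected in 1 and 0 of them and the neutrophil marker *Csf3r* in 0 and 1.

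In thinned neutrophil-like cells of both libraries, most other detected members were found in a larger share of the cells with *Acod1* than of those without. This held for *Clec4e*, *Ptgs2*, *Arg2*, *Clec4d* and, on few cells, *Cd274*, while *Cd84* had the smaller share in cells with *Acod1*. *Clec4e* was detected in 57.1% of CM cells with *Acod1* and 48.6% of those without, and in 60.1% and 49.2% of TCM cells. *Ptgs2* was detected in 36.7% of CM cells with *Acod1* and 28.6% of those without, and in 22.7% and 19.7% of TCM cells. Cells differ in which UMIs thinning keeps, so these shares are a description only.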
